A study of Mus musculus with 12 samples.

Results

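Ly6G+ cells from the spleens of mice aged 14 days were compared with those of mice aged 7 days, which covers the second week after birth. The 3 libraries of each age were used, 6 of the 12 in the series, and all genes of the deposited count table entered the comparison. The labels describe the cells of every age as PMN-MDSC (polymorphonuclear myeloid-derived suppressor cells, neutrophils able to restrain T cells) and name no strain, sex, genotype or treatment. The other 6 libraries came from mice aged 2 days and 6 weeks and are given beside the comparison as levels only. It is not stated how many mice made a library or whether replicates came from separate mice, so p-values speak of the variation among these libraries alone, and that variation may be technical.

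Neutrophils are made in the bone marrow and, around birth, also in the spleen and liver. Granule proteins are made in a fixed order during maturation, those of primary granules first and those of secondary and gelatinase granules later, while receptors for chemoattractants and cytokines appear on cells that stop dividing. Ly6G is a surface protein of the mouse granulocyte lineage and is present from late precursors to mature cells, so a Ly6G+ sample can hold several stages.

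The 6 libraries held 34495767 to 37328421 counts. Defining neutrophil transcripts were abundant at both ages: S100a9 was at 16299.7, 16512 and 17052 CPM at 7 days and 18847, 17458 and 15262 CPM at 14 days, and Ngp at 20317, 23326 and 19789 CPM at 7 days and 29929, 26784 and 29648 CPM at 14 days. Ly6g itself was at 94.5, 116 and 99.6 CPM at 7 days and 189.5, 159 and 156 CPM at 14 days, and every 14-day library lay above every 7-day library (log2 fold change 0.71, SE 0.15, adjusted p = 0.00204). Transcripts of 4 Y-linked genes gave between 1816 and 4010.0 counts per library at 7 days and at most 1 count per library at 14 days, while Xist, which is made in females, was at 309, 441 and 187 CPM at 7 days and 322, 508 and 429.6 CPM at 14 days and was called only without replicate 2 at 7 days (0.76). Each 7-day library thus held RNA of males and, with Xist, of females, and so of more than 1 mouse. The 14-day libraries did not hold RNA of males, so a difference of sex and a difference of age cannot be told apart here. The 4 Y-linked genes gave 3051 to 3299 counts per library at 2 days and at most 1 at 6 weeks. The same limit thus holds where the younger ages are set against the older ones. The labels name no batch either, so age and a difference in how the samples of an age were prepared cannot be told apart. Replicate 1 at 14 days stood somewhat apart, with a mean Spearman correlation of 0.986 with the others of its age against 0.99 and 0.99, and results that rest on it are given with the value without it. In bulk RNA, fewer cells of a type and less RNA per cell cannot be told apart.

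Nearly 1 gene in 2 differed between the 2 ages. edgeR's quasi-likelihood test with Benjamini-Hochberg adjustment called 7108 of 15494 genes at a threshold of 0.05 (45.9%), 3713 of them higher at 14 days (24%) and 3395 lower (21.9%). Changes of more than 2-fold were seen for 1725 higher and 1699 lower genes (22.1% of genes tested), and of more than 8-fold for 194 higher and 378 lower genes. All 3 libraries of 1 age lay above all 3 of the other for 9897 genes (63.9%). The median log2 fold change over all genes was 0.015. Counts of list members below are to be read against these shares, and members of a list are not independent of each other.

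**Figure D1:**
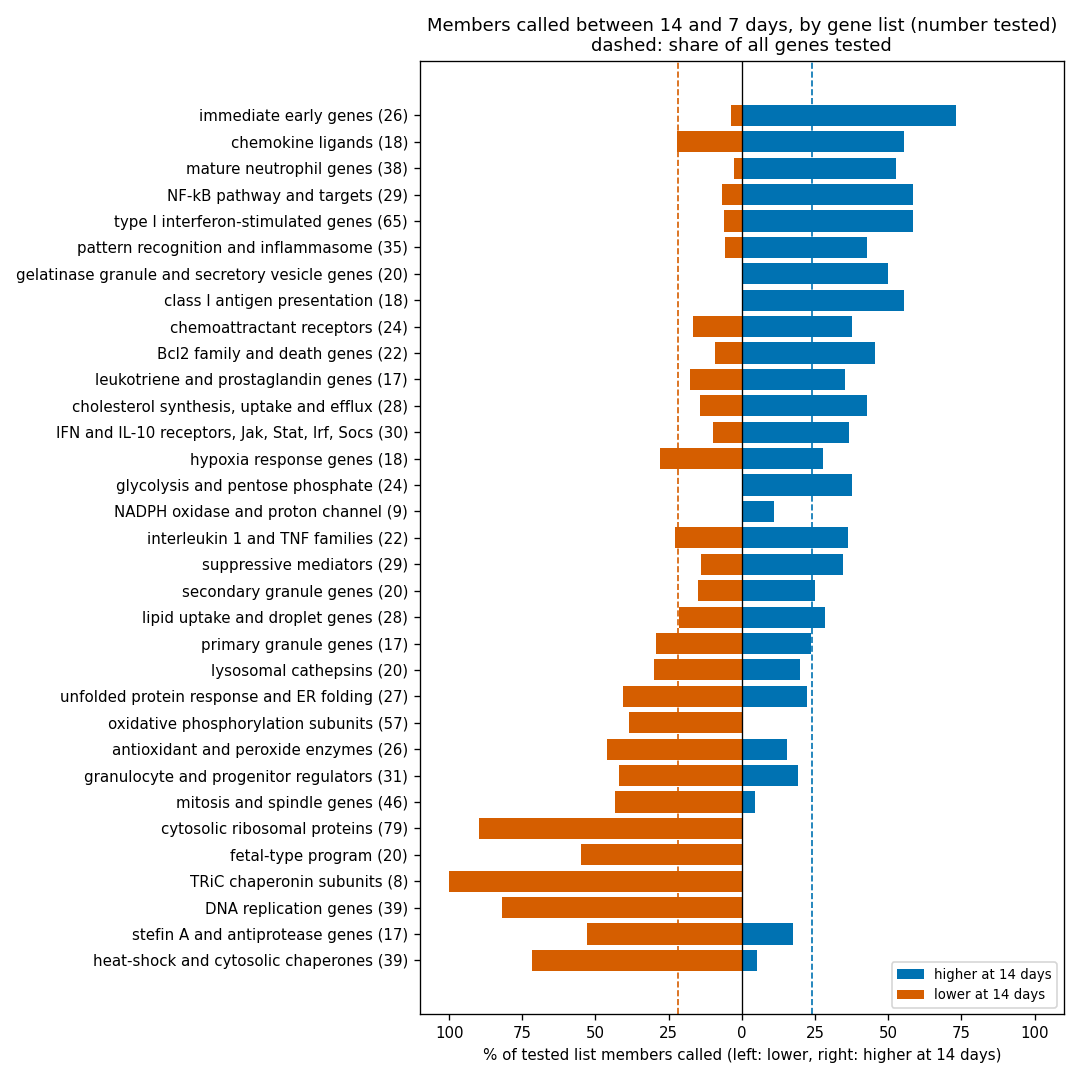
Percentage of the tested members of each gene list, markers of other cell types not drawn, called higher (right) or lower (left) at 14 days than at 7 days, with the number tested in brackets and the shares over all genes tested as dashed lines (24% higher, 21.9% lower). Lists are ordered by their median log2 fold change; immediate early genes stand first of the lists drawn, with 19 of 26 higher, and chaperones last of them, with 28 of 39 lower.

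The 12 largest falls were taken among called genes with a mean of at least 20 CPM at 7 days and separate ranges at the 2 ages, leaving out predicted genes, pseudogenes, antigen receptor segments and sex-linked genes. The Y-linked Ddx3y, at 35.9 ± 12.9 CPM (SD, n = 3) at 7 days and 0 counts at 14 days, would otherwise have been among them. Of the 12, 3 were heat-shock 70 genes and 1 was a heat-shock 110 gene (Hspa1a, Hspa1b, Hspa1l and Hsph1, described below). Erythroid genes made up 6, among them Kel (Kell blood group antigen, -6.28), Klf1 (erythroid transcription factor, -5.78), Rhag (Rh-associated glycoprotein, -5.58), Ermap (a red cell membrane protein, -5.54) and Aqp1 (a water channel of red cells and endothelium, -5.74). The others were the mast cell protease gene Mcpt4 and Rag1, which recombines antigen receptor genes in lymphocyte precursors. Mcpt4 was at 18.2, 26 and 19.5 CPM at 7 days and 0, 0.109 and 0.243 CPM at 14 days, after 1025 ± 365 CPM at 2 days. Rag1 was at 34.2, 29.2 and 35.9 CPM at 7 days and 0.0875, 0.68 and 0.701 CPM at 14 days, with a log2 fold change of -6.05 ± 0.50, adjusted p = 4.35e-06. For both genes the 3 libraries at 7 days lay far above those at 14 days. Without replicate 3 at 14 days the log2 fold change of Mcpt4 was -8.48 and that of Rhag -6.24.

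The 12 largest rises under the same rule were led by Cass4 and Fgl2. Cass4, an adhesion scaffold of the Cas family, was at 1.25, 1.96 and 1.31 CPM at 7 days and 175, 64.5 and 72.7 CPM at 14 days, and without replicate 1 at 14 days its log2 fold change was 5.51 in place of 6.11. Fgl2, a fibrinogen-like protein with clotting and immune regulatory activity, was at 9.24, 13.2 and 7.72 CPM at 7 days and 484, 393 and 409 CPM at 14 days (log2 fold change 5.42, SE 0.42, adjusted p = 3.10e-06). Every 14-day library was over 10 times the 7-day ones for both genes. Il1b, Ptgs2, Cxcl2 and Ccrl2 of the same set are described further on. Itgax, the CD11c integrin chain, was at 10.2, 10.5 and 9.93 CPM at 7 days and 182, 189.6 and 179.8 CPM at 14 days, with 3 closely spaced libraries at each age. Csf1, the macrophage colony-stimulating factor, was at 25.8, 34.1 and 27.4 CPM at 7 days and 389, 243 and 288 CPM at 14 days (log2 fold change 3.40, SE 0.24, adjusted p = 1.51e-06). Prr5l (a partner of the mTORC2 kinase, 4.42), Phospho1 (a phosphatase, 3.76), Cd244a (the receptor 2B4, 3.52) and the interferon-stimulated Oasl2 (3.42) completed the 12 rises. Fgl2, Itgax and Csf1 lay at 131 ± 79.7 CPM at 2 days and 695 ± 139.7 at 6 weeks, 52.8 ± 29.7 CPM at 2 days and 167 ± 15.1 at 6 weeks and 124 ± 21.6 CPM at 2 days and 153 ± 38.3 at 6 weeks, so the 7-day level of each was the lowest of the 4 ages.

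Heat-shock chaperones had the lowest median of all lists other than markers of other cells. Proteins of the Hsp70, Hsp90 and Hsp110 families hold and refold unfolded proteins, and their inducible genes are switched on by the transcription factor Hsf1. Of 39 tested members 28 were lower at 14 days and 2 higher, with a median log2 fold change of -2.05, and in 30 every 14-day library lay below every 7-day library. Summed over the list, the level was 41802 to 46884 CPM at 7 days and 6546 to 9922 CPM at 14 days, with 8784 to 11176 CPM at 2 days and 6625 to 7544 CPM at 6 weeks. Chaperone genes were therefore high at 7 days alone among the 4 ages. The plot of chaperone genes by library shows this for single genes.

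**Figure D2:**
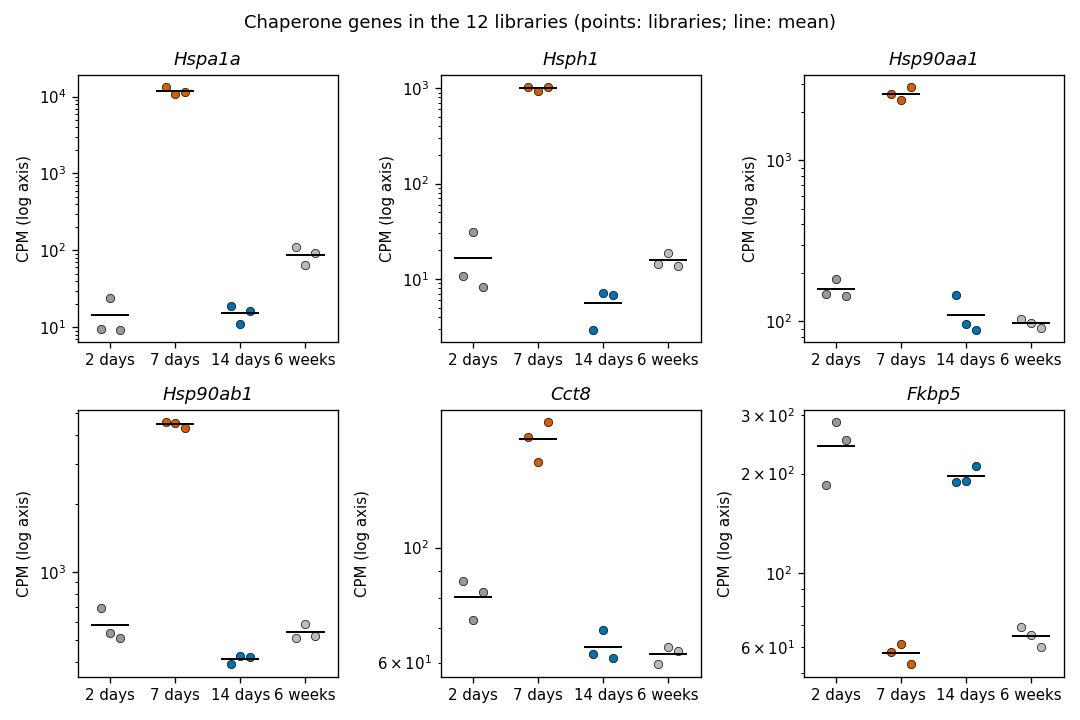
Levels of 6 chaperone or co-chaperone genes in CPM (log axis, 1 scale per gene) in the 12 libraries; points are libraries and lines the means of 3. Hspa1a, Hsph1, Hsp90aa1, Hsp90ab1 and Cct8 peak at 7 days, while Fkbp5 is low at 7 days and at 6 weeks.

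Hspa1a and Hspa1b encode the stress-inducible Hsp70 and lie side by side on chromosome 17 (GRCm38, Hspa1a at chr17:34969190-34972156 and Hspa1b at chr17:34956436-34959238, both on the minus strand and protein coding). Hspa1a was at 13373, 10674 and 11467 CPM at 7 days and 19.1, 10.9 and 16.2 CPM at 14 days. Hspa1b was at 9846, 8045 and 8365 CPM at 7 days and 14.5, 10.6 and 11.9 CPM at 14 days. All 6 values at 7 days lay far above those at 14 days, which were all between 10 and 20 CPM. The fall of Hspa1a was 767-fold (log2 fold change -9.58, SE 0.50, adjusted p = 2.08e-07) and that of Hspa1b 708-fold (log2 fold change -9.47, SE 0.56, adjusted p = 3.80e-07). The 2 genes are near-identical and their reads may have been divided between them, so only their joint level is secure. At the other ages Hspa1a was at 9.45, 24.3 and 9.31 CPM at 2 days and 109, 64.6 and 91.1 CPM at 6 weeks.

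Hsph1, an Hsp110 that recharges Hsp70, was at 1024, 932 and 1030.1 CPM at 7 days and 2.95, 7.21 and 6.82 CPM at 14 days (log2 fold change -7.45, SE 0.55, adjusted p = 2.32e-06). Hsp90aa1, the inducible Hsp90, was at 2581, 2370.0 and 2862 CPM at 7 days and 145, 96.4 and 88.9 CPM at 14 days (log2 fold change -4.56, SE 0.21, adjusted p = 7.74e-08), and Hsp90ab1, the constitutive form, at 4597, 4537 and 4315 CPM at 7 days and 390.0, 423 and 422 CPM at 14 days (log2 fold change -3.45, SE 0.15, adjusted p = 7.34e-08). No 14-day library came near a 7-day library for any of the 3 genes. Stip1, which hands proteins from Hsp70 to Hsp90, fell by 3.27 on the log2 scale, Hspa4l of the Hsp110 family by 3.09, and Hspa1l by 5.98. The mitochondrial chaperonin genes Hspd1 (Hsp60) and Hspe1 (Hsp10) were at 328, 272 and 336 CPM at 7 days and 25.5, 35 and 33.5 CPM at 14 days and at 192, 126 and 212 CPM at 7 days and 9.86, 16 and 15.8 CPM at 14 days. Replicate 2 was the lowest of the 7-day libraries for both of these. Hsf1 itself was at 24.9, 22.5 and 24 CPM at 7 days and 17.4, 22.2 and 22.5 CPM at 14 days and was not called (log2 fold change -0.20, SE 0.13, adjusted p = 0.209). The members that rose were Fkbp5, a co-chaperone of Hsp90 at steroid receptors, at 58, 61.3 and 53.2 CPM at 7 days and 188, 190.0 and 211 CPM at 14 days (log2 fold change 1.77, SE 0.15, adjusted p = 5.19e-06), and Hspa2, a testis-enriched Hsp70 (0.87).

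A cold-inducible RNA-binding protein gene went the other way. Cirbp was at 8.36, 6.22 and 8.95 CPM at 7 days and 71.6, 47.9 and 47.8 CPM at 14 days (log2 fold change 2.83, SE 0.33, adjusted p = 4.32e-05), and its relative Rbm3 at 151, 115 and 146 CPM at 7 days and 245, 184 and 155 CPM at 14 days (log2 fold change 0.50, SE 0.16, adjusted p = 0.0213). Both were named after their values were seen. The libraries of the 2 ages did not overlap for either gene. Rbm3 was not called without replicate 2 or 3 at 7 days or replicate 1 at 14 days (0.30 without the last). Cirbp was at 122, 48.8 and 132 CPM at 2 days and 33.5, 28.9 and 38.5 CPM at 6 weeks.

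Promoter sequence is shown for Hspa1a and Hsph1, which with Hspa1b had the largest falls of the chaperone list, and for Hspe1, a smaller fall (-3.67) whose window holds the longer form of the element described next. The heat-shock element bound by Hsf1 is built of inverted 5-base units, and it was searched on both strands in the 250 bases before RefSeq gene starts (GRCm38.p6), first as 3 units, that is TTC and GAA triplets in alternation with any 2 bases between them. This was present in 3 of 33 matched list members (9.09%) and in 2 of the 24 that fell (8.33%), against 139 of 27025 genes in the promoter table (0.514%). The shorter form with 2 units, GAANNTTC or TTCNNGAA, which lies within the longer one, was added after the result of the 3-unit form was seen. It was present in 12 of 33 matched list members (36.4%), in 11 of the 24 that fell (45.8%) and in 12.3% of genes tested. Hspd1 and Hspe1 are transcribed away from each other and share an element between them, and they are the 2 members that fell with the 3-unit form. Their windows share 215 bases, so 1 sequence is counted for both. Their windows overlap annotated exons, as does that of Hsph1, so only 30 bases around the element are given for Hspe1 (chr1:55088053-55088082, plus strand) and for Hsph1 (chr5:149636351-149636380, minus strand). The Hspa1a window (chr17:34972157-34972406, minus strand) is given whole, and that of Hspa1b differs from it at 3 of 250 bases. Both genes are counted among the members with the 2-unit form. Capitals mark the element, sequences run 5′ to 3′, and a match is a description of letters, not of binding.
Hspe1: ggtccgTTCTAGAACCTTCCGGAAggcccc
Hsph1: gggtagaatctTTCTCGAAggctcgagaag
Hspa1a: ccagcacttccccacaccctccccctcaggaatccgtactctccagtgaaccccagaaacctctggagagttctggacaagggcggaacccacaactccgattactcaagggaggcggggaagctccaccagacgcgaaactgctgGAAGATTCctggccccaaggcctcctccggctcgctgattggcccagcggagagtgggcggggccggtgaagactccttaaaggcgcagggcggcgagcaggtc

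The TRiC chaperonin, a ring of 8 related subunits that folds actin and tubulin, fell as a whole. All 8 subunit genes were lower at 14 days (median -1.22, range -1.93 to -0.76). Cct8 was at 164, 146 and 175 CPM at 7 days and 62.2, 69.5 and 61.1 CPM at 14 days (log2 fold change -1.33, SE 0.11, adjusted p = 4.08e-06), and Cct5 at 184, 164 and 180.4 CPM at 7 days and 69.1, 78.9 and 78.2 CPM at 14 days. The libraries of the 2 ages did not overlap for any subunit. Genes of the unfolded protein response, which serves folding in the endoplasmic reticulum, were mixed: 6 of 27 rose, 11 fell, and the median was -0.09. Hsp90b1, the reticulum's Hsp90, was at 515, 534 and 551 CPM at 7 days and 181, 236 and 217 CPM at 14 days (log2 fold change -1.34, SE 0.14, adjusted p = 1.89e-05), whereas the Hsp70 of the same compartment, Hspa5, was at 510.5, 518 and 538 CPM at 7 days and 635, 409 and 441 CPM at 14 days and was not called. Asns, asparagine synthetase, fell by 1.57 on the log2 scale, the stress sensor Ern1 (IRE1) rose by 1.43, and Xbp1, whose messenger Ern1 splices, had a value of -0.20 that was not called.

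Transcripts of ribosomal proteins were lower at 14 days almost throughout. Of 79 tested genes 71 fell and 0 rose, with a narrow spread around the median of -0.71. Rplp0, of the ribosomal stalk, was at 1211, 1013 and 1109 CPM at 7 days and 594, 689 and 713 CPM at 14 days (log2 fold change -0.74, SE 0.14, adjusted p = 0.00123), and Rps26 at 297, 198 and 276 CPM at 7 days and 111, 118 and 130.0 CPM at 14 days (log2 fold change -1.10, SE 0.15, adjusted p = 1.41e-04). Rps9 was an exception, at 1016, 931 and 961 CPM at 7 days and 1073, 1027 and 978 CPM at 14 days and not called. Summed levels were 25073, 18246 and 23555 CPM at 7 days and 12525, 14885 and 13795 CPM at 14 days, so replicate 2 was the lowest of the 7-day libraries. The summed level of erythroid markers had the same order at 7 days (7375, 4609.6 and 6839 CPM), and its part in the result was not tested. Subunits of oxidative phosphorylation fell by less: 22 of 57 were lower, 0 higher, and the median was -0.23. Atp5b, of the ATP synthase, was at 541, 498 and 496 CPM at 7 days and 353, 353 and 360.3 CPM at 14 days (log2 fold change -0.53, SE 0.10, adjusted p = 0.00161). Without replicate 1 at 7 days the number of lower subunits was 14, and without replicate 3 at 7 days 13.

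Genes that copy DNA fell nearly as a group. They act in late granulocyte precursors and other dividing cells and are shut off as neutrophils mature. Among 39 tested genes 32 were lower at 14 days and 0 higher (median -1.24). Cdc6, which loads the replicative helicase, was at 33.2, 25.5 and 32 CPM at 7 days and 6.22, 6.94 and 7.28 CPM at 14 days (log2 fold change -2.15, SE 0.22, adjusted p = 1.90e-05). Mcm5, a subunit of that helicase, was at 142, 116 and 128 CPM at 7 days and 45.7, 58.4 and 59.3 CPM at 14 days (log2 fold change -1.24, SE 0.29, adjusted p = 0.00413), Orc6 of the origin complex fell by 1.48 on the log2 scale, and the S-phase cyclin Ccne2 by 1.74. Pcna, the sliding clamp, was at 180.0, 142 and 175 CPM at 7 days and 133, 84.1 and 77.1 CPM at 14 days. For each of these genes the 14-day libraries lay below those of 7 days.

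Genes of mitosis fell by less, with 20 of 46 lower and 2 higher (median -0.53). Mki67, the Ki-67 protein of cycling cells, was at 630.5, 636 and 690.1 CPM at 7 days and 341, 322 and 321 CPM at 14 days (log2 fold change -0.99, SE 0.16, adjusted p = 3.81e-04), and Top2a, a topoisomerase needed to part chromosomes, at 333, 342 and 346 CPM at 7 days and 190.4, 192 and 198 CPM at 14 days (log2 fold change -0.82, SE 0.21, adjusted p = 0.00717). Kif23, a motor of cell division, and Pttg1, securin, rose (1.08 and 1.47). Both proliferation lists lay above their 6-week levels at 14 days: replication genes summed to 1597 to 1932 CPM at 7 days and 800.3 to 874 CPM at 14 days, against 508, 611 and 508 CPM at 6 weeks. At 2 days replication genes summed to 493 to 1085 CPM and mitosis genes to 818 to 1340 CPM. Mitosis genes were at 3284 to 3416 CPM at 7 days and 2215 to 2372 CPM at 14 days, so both lists were highest at 7 days. Erythroid precursors also divide, and the 27 erythroid markers fell with these genes, from a summed 4609.6 to 7375 CPM at 7 days and 338 to 644 CPM at 14 days. Their part in the result was not tested.

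**Figure D3:**
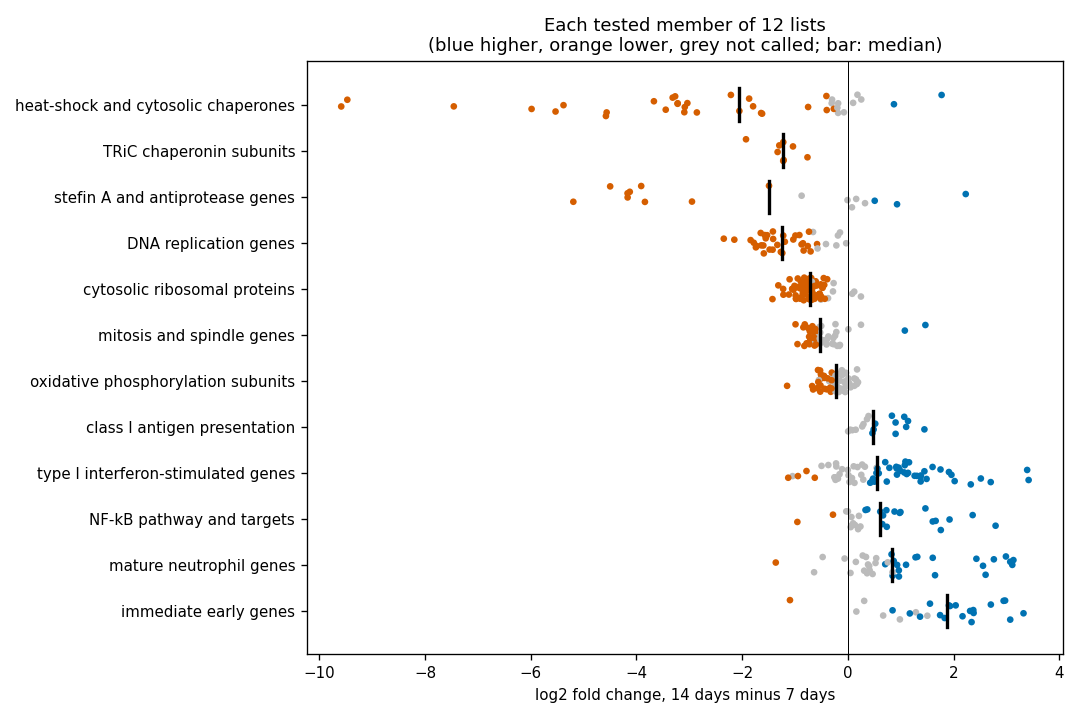
Log2 fold change (14 days minus 7 days) of every tested member of 12 lists; each point is a gene, blue if called higher, orange if called lower and grey if not called, and the bar is the list's median. Chaperones reach -9.58 and stefin A genes -5.19, ribosomal proteins form a tight group near -0.71, and immediate early genes centre on 1.87.

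Stefin A genes, a rodent cluster of cysteine protease inhibitors made by neutrophils, fell steeply. Stfa1 was at 4219.8, 4209 and 4864 CPM at 7 days and 210.3, 247 and 283 CPM at 14 days (log2 fold change -4.17, SE 0.24, adjusted p = 3.72e-07), Stfa3 at 1924, 2069 and 2116 CPM at 7 days and 62.2, 88.8 and 119.5 CPM at 14 days (log2 fold change -4.50, SE 0.26, adjusted p = 3.72e-07) and BC117090, a stefin-like gene, at 117, 142 and 124 CPM at 7 days and 3.04, 2.97 and 4.45 CPM at 14 days (log2 fold change -5.19, SE 0.28, adjusted p = 2.52e-07). Each was far lower in every 14-day library. The list as a whole, which also holds other antiproteases, had 9 of 17 members lower and 3 higher (median -1.49). Those that fell were 8 stefin A or stefin-like genes and the antiprotease Serpina3f, and those that rose were Cst3, Slpi and Wfdc17. No member was called higher without replicate 1 or 3 at 7 days or replicate 1 at 14 days, Cst3 lost its call with any 1 of the 6 libraries left out, and Wfdc17 went from 2.23 to 1.01 without replicate 1 at 14 days. Stfa1 was at 5207, 9672 and 7637 CPM at 2 days and 20.7, 15.6 and 19.5 CPM at 6 weeks. It was thus far higher at both young ages than at both later ones, and its 14-day level was still above that of 6 weeks. The 2 young ages are also those with RNA of males. Stefin A copies are near-identical, and how their reads were divided is uncertain for each copy.

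Primary and secondary granule genes moved in both directions, in shares not far from those over all genes tested (24% higher, 21.9% lower). Of 17 primary granule genes 4 rose (23.5%) and 5 fell (29.4%), with a median of 0.04. The serine proteases and peroxidase of this granule were among those that fell: Mpo, myeloperoxidase, was at 182, 119 and 122 CPM at 7 days and 25.2, 35.3 and 39 CPM at 14 days (log2 fold change -2.09, SE 0.49, adjusted p = 0.00417), and Ctsg, cathepsin G, had a log2 fold change of -2.37 ± 0.30, adjusted p = 8.09e-05, with Prtn3 (proteinase 3) at -1.19. Elane, neutrophil elastase, was at 35.7, 18.6 and 22 CPM at 7 days and 6.62, 12.8 and 12.3 CPM at 14 days, at the edge of the threshold (log2 fold change -1.26, SE 0.47, adjusted p = 0.0427), and was no longer called with any of 5 of the 6 libraries left out (-0.97 without replicate 1 at 7 days). Ctsc, which activates these proteases, also fell (-0.84). Members that rose were Prss57, a relative of the proteases (0.94), Man2b1 and Gusb, lysosomal sugar-cleaving enzymes (0.75 and 0.54), and the granule membrane protein Cd63 (0.62). Without replicate 1 or 3 at either age Elane and Prtn3 were both lost, and 3 primary granule genes were lower.

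In the secondary granule list 5 of 20 rose (25%) and 3 fell (15%), with a median of 0.13. The most abundant contents were not called: Ltf, lactoferrin, was at 13840.3, 16722 and 13355 CPM at 7 days and 17084, 13580.2 and 14481 CPM at 14 days, and Camp, the cathelicidin precursor, at 4983, 4366 and 5023 CPM at 7 days and 5879, 5761 and 5317 CPM at 14 days, with Ngp given above (log2 fold change 0.45, SE 0.23, adjusted p = 0.137). The libraries of the 2 ages overlapped for Ltf. Olfm4, a protein held by only some neutrophils, was at 1121, 1618 and 1173 CPM at 7 days and 386, 395 and 416 CPM at 14 days (log2 fold change -1.71, SE 0.17, adjusted p = 1.28e-05), and Lbp, which binds bacterial lipopolysaccharide, at 429, 478 and 433 CPM at 7 days and 196, 159 and 171 CPM at 14 days (log2 fold change -1.35, SE 0.17, adjusted p = 8.24e-05). Ceacam10 was the other that fell (-1.24). Hp (haptoglobin), Chil3, Slpi, Ifitm6 and Orm1 rose, by 0.57 to 1.15 on the log2 scale. Without replicate 1 or 3 at 7 days or replicate 1 at 14 days Hp and Slpi were not called, which left 3, and Hp was not called without replicate 3 at 14 days either. Among 20 genes of gelatinase granules and secretory vesicles 10 rose and 0 fell (median 0.49), with 1 lower when replicate 3 at 14 days was left out. Slc11a1, a metal transporter of these granules, was at 111, 130.2 and 102 CPM at 7 days and 315, 230.3 and 257 CPM at 14 days (log2 fold change 1.23, SE 0.22, adjusted p = 9.28e-04). Mmp9, the gelatinase itself, was at 3141, 3922 and 2903 CPM at 7 days and 4926, 3330.3 and 3746 CPM at 14 days and was not called.

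Genes of mature neutrophils were mostly higher or not called at 14 days. Of 38 tested 20 rose and 1, the formyl peptide receptor Fpr1, fell (-1.36), with a median of 0.83. Their summed level was 40899 to 45101 CPM at 7 days and 55598 to 69121 CPM at 14 days. It was 50418 to 90276 CPM at 2 days and 66477 to 75007 CPM at 6 weeks, so 7 days was the lowest age. Csf3r, the receptor for G-CSF, was at 596, 828 and 665 CPM at 7 days and 4892, 2985 and 3388 CPM at 14 days (log2 fold change 2.43, SE 0.37, adjusted p = 2.56e-04). Il1r2, a decoy receptor for interleukin 1, was at 53.5, 80.8 and 62.1 CPM at 7 days and 516, 341 and 337 CPM at 14 days (log2 fold change 2.60, SE 0.23, adjusted p = 7.69e-06). The integrin chain Itgal, a member of the monocyte marker list, had a log2 fold change of 0.85 ± 0.24, adjusted p = 0.013, which was not called without replicate 3 at 7 days (0.74). The 14-day levels of Csf3r all exceeded the highest 7-day level more than 3-fold. S100a8 and S100a9, the calprotectin subunits, were not called (0.41 and 0.05), nor was the chemokine receptor Cxcr2, at 394, 529 and 406 CPM at 7 days and 685, 542 and 611 CPM at 14 days. Replicate 1 was the highest of the 14-day libraries for Csf3r, Il1r2 and Cxcr2.

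Regulators of granulocytes and progenitors were mixed, with 6 of 31 higher and 13 lower (median -0.38). Cebpb, which drives emergency granulopoiesis, was at 204, 172 and 172 CPM at 7 days and 874, 606 and 659 CPM at 14 days (log2 fold change 1.97, SE 0.23, adjusted p = 4.84e-05), and Csf2ra, a subunit of the GM-CSF receptor, rose by 1.31 on the log2 scale. Gfi1b, of erythroid and megakaryocyte cells, was at 14.8, 8.52 and 14.9 CPM at 7 days and 1.25, 1.31 and 1.54 CPM at 14 days (log2 fold change -3.22, SE 0.33, adjusted p = 1.81e-05). The myeloid regulator Spi1 (PU.1) was at 835, 844 and 747 CPM at 7 days and 1179.6, 975 and 1039 CPM at 14 days and was not called. The NADPH oxidase, which makes superoxide, had 1 of 9 genes called, Ncf4, at 414, 438 and 402 CPM at 7 days and 618, 523 and 542 CPM at 14 days (log2 fold change 0.43, SE 0.15, adjusted p = 0.0392), and that call was lost with each of the 6 libraries left out in turn. Antioxidant enzymes fell more often than they rose: 12 of 26 were lower and 4 higher (median -0.24). Prdx2, a peroxiredoxin abundant in red cells, was at 128, 95.6 and 123 CPM at 7 days and 15.9, 26.7 and 25.3 CPM at 14 days (log2 fold change -2.35, SE 0.29, adjusted p = 6.15e-05), mitochondrial Prdx3 fell by 1.13 and Sod1 by 0.84 on the log2 scale. Gsr, glutathione reductase, was at 590.2, 756 and 577 CPM at 7 days and 1684, 1217 and 1246 CPM at 14 days (log2 fold change 1.11, SE 0.19, adjusted p = 5.50e-04), and Nqo1, Srxn1 and Slc7a11 were the others that rose, Nqo1 not without replicate 2 at 7 days or replicate 1 at 14 days.

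Genes of the interleukin 1 pathway moved in both directions. Il1b, which encodes interleukin 1 beta (GRCm38 chr2:129364570-129371139, minus strand), was at 64.4, 92.3 and 72.1 CPM at 7 days and 2732, 1502 and 1599 CPM at 14 days (log2 fold change 4.67, SE 0.36, adjusted p = 2.85e-06). Of its pathway, the receptor chain Il1rap was at 13.7, 17 and 14.2 CPM at 7 days and 157, 115 and 114 CPM at 14 days (log2 fold change 3.11, SE 0.21, adjusted p = 1.34e-06), and Nlrp3, the sensor of the inflammasome that leads to cleavage of interleukin 1 beta, at 46.7, 64.3 and 52.3 CPM at 7 days and 475, 258 and 268 CPM at 14 days (log2 fold change 2.62, SE 0.28, adjusted p = 2.79e-05), while the receptor Il1r1 (-0.99), the related cytokine Il18 (-1.30) and the inflammasome adaptor Pycard (-0.48) fell, Pycard not without replicate 1 or 2 at 7 days or replicate 1 or 3 at 14 days. For Il1b, Il1rap and Nlrp3 no 14-day library overlapped the 7-day range, and replicate 1 was the highest at 14 days. In the list of interleukin 1 and TNF families 8 of 22 rose and 5 fell (median 0.14). Tnf was at 37.7, 29.9 and 32.9 CPM at 7 days and 91.5, 43.8 and 47.3 CPM at 14 days (log2 fold change 0.86, SE 0.25, adjusted p = 0.0149) and was not called without replicate 2 or 3 at 7 days or without replicate 1 at 14 days, where its log2 fold change was 0.44. Tnfrsf26, a decoy receptor, fell by 1.67 on the log2 scale, and Il18, Il1rl1, Il1r1 and Tnfrsf23 were the others that fell, Il1r1 being called with no library left out or without replicate 2 at 14 days only.

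**Figure D4:**
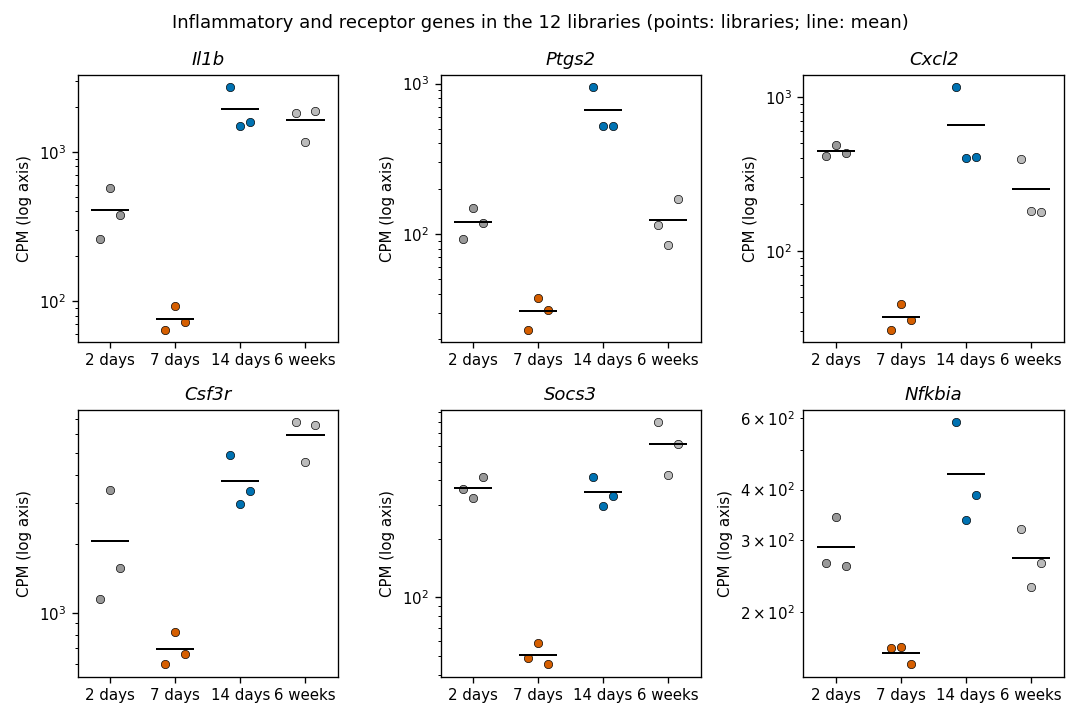
Levels of Il1b, Ptgs2, Cxcl2, Csf3r, Socs3 and Nfkbia in CPM (log axis, 1 scale per gene) in the 12 libraries; points are libraries and lines the means of 3. Each gene is lowest at 7 days, and replicate 1 is the highest of the 14-day libraries for each.

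Chemokine ligands rose in 10 of 18 cases and fell in 4 (median 1.00). Cxcl2, a ligand of Cxcr2 that draws neutrophils, was at 30.7, 44.9 and 35.5 CPM at 7 days and 1158, 402 and 407 CPM at 14 days (log2 fold change 4.14, SE 0.45, adjusted p = 2.80e-05), with replicate 1 at 14 days well above the other libraries of that age and a log2 fold change of 3.45 without it. Ccl6 was at 70.3, 81.4 and 70.8 CPM at 7 days and 886, 536 and 526 CPM at 14 days (log2 fold change 3.13, SE 0.38, adjusted p = 5.55e-05). The ligands that fell were Cxcl12 (-5.21, and -5.80 without replicate 3 at 14 days), Ppbp (-3.16) and Pf4 (-2.72, and -3.43 without replicate 1 at 14 days), and Ccl24 (-1.76), all at under 10 CPM. Chemoattractant receptors were called higher in 9 of 24 and lower in 4 (median 0.39). Ccrl2, an atypical receptor that presents chemerin, was at 17.8, 19.4 and 20.2 CPM at 7 days and 513, 153 and 169 CPM at 14 days, with a log2 fold change of 3.86 and of 3.07 without replicate 1 at 14 days. Cxcr4, which retains neutrophils in the marrow, was at 427, 479.7 and 399 CPM at 7 days and 918, 733 and 808 CPM at 14 days (log2 fold change 0.91, SE 0.24, adjusted p = 0.00877). Those that fell were Fpr1, Ackr3, Cxcr5 and C3ar1, the last of which lost its call with any library but replicate 3 at 7 days left out.

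NF-kB is the transcription factor family that drives many of these genes and its own inhibitors. In the NF-kB list 17 of 29 genes rose and 2 fell, Cflar (-0.96) and Sod2 (-0.28), with a median of 0.61. Nfkbia, the inhibitor that NF-kB induces, was at 163, 164 and 148 CPM at 7 days and 588, 336 and 387 CPM at 14 days (log2 fold change 1.47, SE 0.20, adjusted p = 1.47e-04), Nfkbiz at 175, 236 and 191 CPM at 7 days and 950.4, 482 and 473 CPM at 14 days (log2 fold change 1.66, SE 0.24, adjusted p = 2.10e-04) and Tnfaip2 at 159, 193 and 154 CPM at 7 days and 1218, 675 and 703 CPM at 14 days (log2 fold change 2.36, SE 0.29, adjusted p = 6.34e-05). The subunit Relb and the kinase Chuk rose by 0.99 and 0.98 on the log2 scale, and the adaptor Traf1 by 2.79. Without replicate 1 or 3 at 7 days, or replicate 2 or 3 at 14 days, Sod2 was not called, which left 1 lower.

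Immediate early genes, which are switched on within minutes by stimulation, had the highest median of any list (1.87). Of 26 tested 19 rose and 1, Myc, fell (-1.10). Fosb was at 169, 159.6 and 221 CPM at 7 days and 1555, 1329.7 and 1351 CPM at 14 days (log2 fold change 2.94, SE 0.22, adjusted p = 2.65e-06), Dusp1, which dephosphorylates stress kinases, at 409, 521 and 403 CPM at 7 days and 3091, 3689.7 and 4408 CPM at 14 days (log2 fold change 3.07, SE 0.31, adjusted p = 1.56e-05), and Nr4a1 at 201, 195 and 206 CPM at 7 days and 1837, 1048 and 1040.4 CPM at 14 days (log2 fold change 2.70, SE 0.22, adjusted p = 4.51e-06). Zfp36, which marks inflammatory messengers for decay, was at 979, 1176 and 964 CPM at 7 days and 3928, 3125 and 4033 CPM at 14 days (log2 fold change 1.83, SE 0.19, adjusted p = 2.35e-05). Summed over the list, levels were 6992 to 7681 CPM at 7 days and 23083 to 29454 CPM at 14 days, with 23146 to 35540.2 CPM at 2 days and 14528 to 19348 CPM at 6 weeks. The 7-day libraries were thus the low ones among the 4 ages, the reverse of their place for chaperones.

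Pattern recognition genes rose in 15 of 35 cases and fell in 2, Mavs (-2.53) and Pycard (-0.48), with a median of 0.55. Cd14, a co-receptor for lipopolysaccharide, was at 77.2, 89.6 and 92 CPM at 7 days and 450.2, 245 and 233 CPM at 14 days (log2 fold change 1.84, SE 0.26, adjusted p = 1.45e-04). Tlr6 rose by 2.29 and Tlr11 by 2.43 on the log2 scale, while Tlr13 (0.99 ± 0.29, adjusted p = 0.0152) was not called without replicate 1 or 3 at 7 days. Pycard was not called, which left 1 lower, without replicate 1 or 2 at 7 days or replicate 1 or 3 at 14 days.

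Mediators by which such cells restrain T cells moved in different directions, with 10 of 29 higher and 4 lower (median 0.14), and 2 lower without replicate 2 at 7 days. Ptgs2, the inducible cyclooxygenase of prostaglandin E2 synthesis (GRCm38 chr1:150100031-150108227, plus strand), was at 23.2, 37.4 and 31.2 CPM at 7 days and 949, 524 and 523 CPM at 14 days (log2 fold change 4.44, SE 0.35, adjusted p = 3.10e-06). Its 14-day level was also the highest of the 4 ages, with 119.8 ± 28.4 CPM at 2 days and 123 ± 44.1 at 6 weeks. Ptges, which makes prostaglandin E2 from the product of Ptgs2, rose by 1.01. Cd274, the checkpoint ligand PD-L1, was at 11.6, 12.9 and 11.9 CPM at 7 days and 49.3, 38.9 and 34.7 CPM at 14 days (log2 fold change 1.76, SE 0.15, adjusted p = 6.74e-06), and Havcr2, the receptor Tim-3, rose by 2.62. Slc27a2, a fatty acid transporter of suppressive neutrophils, was at 0.196, 0.635 and 0.327 CPM at 7 days and 3.12, 4.11 and 3.67 CPM at 14 days.

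The members that fell were Thbs1, Nos2, Nt5e and Hmox1. Thbs1, thrombospondin 1, was at 4353, 6414 and 5285 CPM at 7 days and 3889, 3145 and 2948 CPM at 14 days (log2 fold change -0.69, SE 0.20, adjusted p = 0.0154) and was not called without replicate 2 at 7 days (-0.54) or replicate 3 at 14 days (-0.61). Nos2, the inducible nitric oxide synthase, was near the limit of detection, at 0.735, 2.09 and 0.83 CPM at 7 days and 0.35, 0.109 and 0.297 CPM at 14 days (log2 fold change -2.26, SE 0.66, adjusted p = 0.0145), and was not called without replicate 2 at 7 days (-1.63) or replicate 2 at 14 days (-1.93). Nt5e, the enzyme CD73 that makes adenosine, had a log2 fold change of -1.76 ± 0.21, adjusted p = 5.87e-05, and Hmox1, haem oxygenase 1, of -1.01 ± 0.17, adjusted p = 5.77e-04. Arg1, arginase 1, was at 0.417, 0.635 and 0.503 CPM at 7 days and 0.379, 0.163 and 0.108 CPM at 14 days and was not called, though without replicate 1 at 14 days it was (-1.91). Tgfb1 was at 217, 191 and 186 CPM at 7 days and 226, 225 and 258 CPM at 14 days and was not called (log2 fold change 0.26, SE 0.15, adjusted p = 0.179). Of 17 leukotriene and prostaglandin genes, 6 rose and 3 fell (median 0.32). Pla2g7, which breaks down platelet-activating factor, was at 45.2, 64.3 and 46 CPM at 7 days and 588, 393 and 409 CPM at 14 days (log2 fold change 3.16, SE 0.37, adjusted p = 4.30e-05).

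Type I interferon-stimulated genes rose in 38 of 65 cases and fell in 4, with a median of 0.56. Interferon acts through its receptor on these genes, and Irf7 amplifies the response. Oasl2 was at 8.72, 15 and 10.1 CPM at 7 days and 167, 92.4 and 101 CPM at 14 days (log2 fold change 3.42, SE 0.42, adjusted p = 5.88e-05), Irf7 at 37.1, 43 and 34 CPM at 7 days and 117, 99.4 and 103 CPM at 14 days (log2 fold change 1.49, SE 0.16, adjusted p = 2.64e-05) and Zbp1, a sensor of nucleic acids, at 4.39, 4.82 and 3.9 CPM at 7 days and 19.9, 17.1 and 13.9 CPM at 14 days (log2 fold change 1.96, SE 0.16, adjusted p = 3.86e-06). Dhx58 and Uba7 rose by 1.31 and 1.38 on the log2 scale. Samd9l, an antiproliferative protein, was at 398, 498 and 429 CPM at 7 days and 204, 209 and 194 CPM at 14 days (log2 fold change -1.13, SE 0.29, adjusted p = 0.00766), and Ifi203, Bst2 and Lgals3bp were the others that fell, Lgals3bp not without any 1 of the 7-day libraries or replicate 1 at 14 days. The summed level of the list was 2882 to 3359 CPM at 7 days and 3999 to 4596 CPM at 14 days. It was 3370 to 5767 CPM at 2 days and 8124 to 9703 CPM at 6 weeks. The 7-day libraries were thus the lowest of the 4 ages. The 14-day range lay within that of 2 days and below that of 6 weeks.

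The response element for interferon was searched in the same windows on both strands as a GAAA repeated after any 2 bases. It was present in 14 of the 28 matched members that rose (50%) and in 25 of 51 matched members of the list (49.0%), against 3.31% of genes tested. The windows of Ifit3 (chr19:34583279-34583528, plus strand) and Ifit3b (chr19:34607707-34607956, plus strand), neighbouring copies on chromosome 19 that rose most among list members with the element, are shown with the element in capitals. They are close copies, so reads may have been divided between them.
Ifit3: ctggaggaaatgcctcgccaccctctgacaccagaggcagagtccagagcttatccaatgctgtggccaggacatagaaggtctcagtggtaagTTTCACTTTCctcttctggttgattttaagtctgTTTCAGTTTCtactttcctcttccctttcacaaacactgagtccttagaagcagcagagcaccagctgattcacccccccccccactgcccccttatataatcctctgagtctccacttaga
Ifit3b: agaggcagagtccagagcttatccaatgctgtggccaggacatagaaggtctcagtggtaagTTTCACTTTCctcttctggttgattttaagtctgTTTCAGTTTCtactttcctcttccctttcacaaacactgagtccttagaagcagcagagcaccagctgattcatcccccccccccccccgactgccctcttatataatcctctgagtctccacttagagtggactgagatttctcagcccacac
Ifit3 was at 1.59, 3.04 and 1.46 CPM at 7 days and 15.8, 11.9 and 11.9 CPM at 14 days (log2 fold change 2.70, SE 0.36, adjusted p = 1.16e-04) and Ifit3b at 0.564, 0.662 and 0.528 CPM at 7 days and 8.43, 4.33 and 5.72 CPM at 14 days (log2 fold change 3.39, SE 0.51, adjusted p = 2.51e-04). All 14-day libraries lay above those of 7 days for both.

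The 2 chains of the type I interferon receptor moved in opposite directions. Ifnar1 was at 64.9, 75.3 and 64.8 CPM at 7 days and 103, 91 and 97.7 CPM at 14 days (log2 fold change 0.51, SE 0.12, adjusted p = 0.00504), whereas Ifnar2 was at 199.6, 204 and 196 CPM at 7 days and 99.7, 87.3 and 87.8 CPM at 14 days (log2 fold change -1.13, SE 0.11, adjusted p = 1.36e-05). Neither gene's libraries overlapped between the ages. Among all 30 genes of receptors, Janus kinases, Stat, Irf and Socs proteins 11 rose and 3 fell (median 0.26), with Socs4 (-0.57) and Socs6 (-0.81) lower besides Ifnar2. Socs3, which curbs signalling by G-CSF and interleukin 6, was at 49, 58.3 and 45.3 CPM at 7 days and 416, 297 and 334 CPM at 14 days (log2 fold change 2.78, SE 0.23, adjusted p = 4.12e-06). Il10ra, a chain of the interleukin 10 receptor, was at 57.7, 59.1 and 60.1 CPM at 7 days and 132, 141 and 123 CPM at 14 days (log2 fold change 1.16, SE 0.11, adjusted p = 1.00e-05). Jak1 rose by 0.52 on the log2 scale, a call that was lost without replicate 1 or 3 at either age.

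Class I antigen presentation rose in 10 of 18 genes and fell in 0 (median 0.47). Tap1, which carries peptides into the reticulum, was at 56, 51.2 and 50.7 CPM at 7 days and 154, 139 and 138 CPM at 14 days (log2 fold change 1.45, SE 0.11, adjusted p = 2.35e-06). Tap2 and the immunoproteasome gene Psmb9 rose by 1.07 and 1.14 on the log2 scale. The class I heavy chain H2-D1 was at 1695, 1834 and 1643 CPM at 7 days and 2697, 1975 and 1972 CPM at 14 days and was not called.

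Genes of a fetal-type program, drawn from RNA-binding proteins and imprinted genes of the fetus, fell in 11 of 20 cases and rose in 0 (median -1.01). Grb10, an imprinted inhibitor of insulin signalling, was at 11.8, 8.76 and 12.1 CPM at 7 days and 0.35, 0.19 and 0.539 CPM at 14 days (log2 fold change -4.90, SE 0.48, adjusted p = 1.41e-05). Lin28b, which blocks let-7 microRNAs, was at 0.956, 0.609 and 1.18 CPM at 7 days and 0, 0.0544 and 0.0809 CPM at 14 days (log2 fold change -4.22, SE 0.65, adjusted p = 5.56e-04), with a log2 fold change of -4.87 when replicate 3 at 14 days was left out. Lin28a was at 117, 157 and 119 CPM at 7 days and 83.6, 88.8 and 90.2 CPM at 14 days (log2 fold change -0.58, SE 0.22, adjusted p = 0.0435), a call lost without replicate 2 at 7 days or any 1 of the 14-day libraries. It was at 119 ± 42.2 CPM at 2 days and 115 ± 20.4 at 6 weeks, so its 6-week level was not below that of 14 days. Grb10 was at 6.54 ± 3.52 CPM at 2 days and 0.225 ± 0.117 at 6 weeks, and Lin28b at 2.21 ± 0.834 CPM at 2 days and 0 at 6 weeks. Igf2bp3 was at 21.5, 25.2 and 23.4 CPM at 7 days and 23.7, 21.6 and 22.9 CPM at 14 days, overlapping at the 2 ages (log2 fold change -0.04, SE 0.15, adjusted p = 0.849), and at 32.8 ± 6.66 CPM at 2 days and 0.928 ± 0.167 at 6 weeks. Of these 4 genes Igf2bp3 alone was at the same level at both ages within its spread.

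Transcripts of other cells moved over the same week. All 27 tested erythroid markers fell (median -4.34), and their summed level was 4609.6 to 7375 CPM at 7 days and 338 to 644 CPM at 14 days. Hbb-bs, an adult beta globin, was at 2394, 1318 and 2139 CPM at 7 days and 29.1, 136 and 114 CPM at 14 days (log2 fold change -4.39, SE 0.59, adjusted p = 1.15e-04), with replicate 2 lowest at 7 days and replicate 1 lowest at 14 days. Globin copies share sequence, and no erythroid marker was at 0 counts at 14 days. The part of these cells in the falls of chaperone, ribosomal, replication and antioxidant genes was not tested. Among mast cell markers 16 of 21 fell and 1, Hdc, rose (median -2.69, or -1.95 with genes at 0 counts set to a floor of 3 counts over the 14-day libraries). Their summed level was 691 to 901 CPM at 7 days and 1054 to 1123 CPM at 14 days, at both ages mostly that of Hdc. At 2 days it was 4185 to 6853 CPM, with Cpa3 at 693 ± 185 and Tpsb2 at 1403 ± 465 CPM, so these 2 genes had already fallen by 7 days. Cpa3, carboxypeptidase A3, was at 11.8, 15.7 and 13 CPM at 7 days and 0.467, 1.03 and 0.755 CPM at 14 days (log2 fold change -4.15, SE 0.32, adjusted p = 2.83e-06), and Tpsb2, a tryptase, had a log2 fold change of -6.33 (-7.09 without replicate 3 at 14 days). Tpsab1, Cma2, Mcpt2, Tpsg1 and Mrgprb1 were at 0 counts at 14 days.

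**Figure D5:**
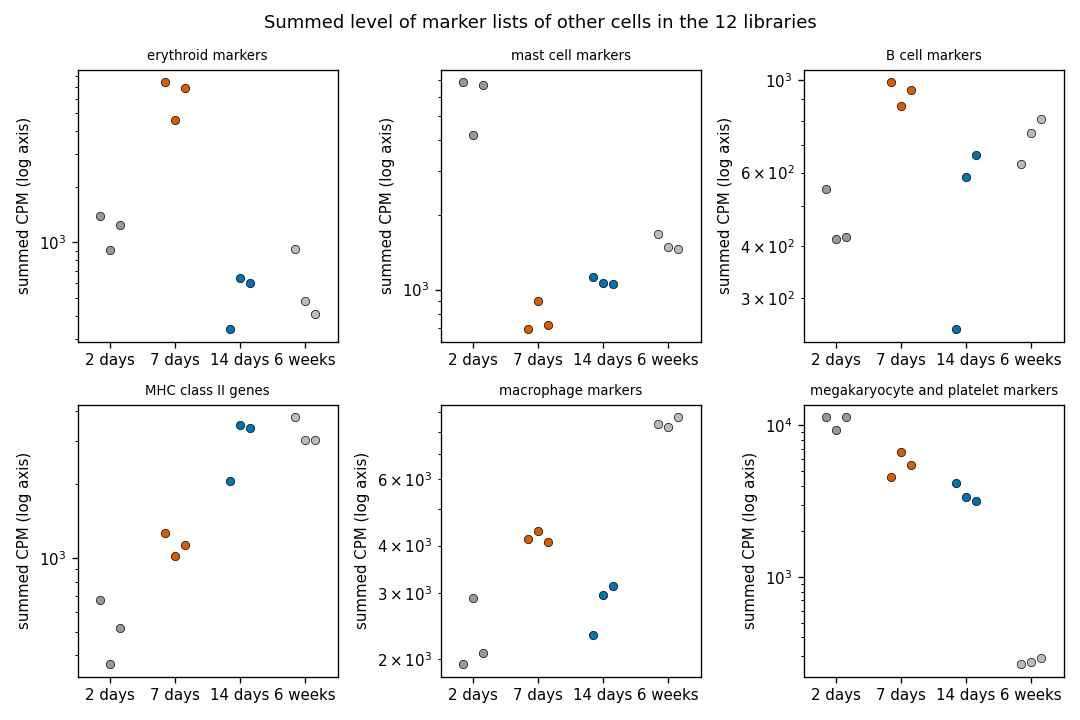
Summed CPM (log axis, 1 scale per panel) of the members of 6 marker lists in the 12 libraries; each point is a library. Erythroid markers peak at 7 days, MHC class II genes are higher at 14 days than at 7 days in every library, and replicate 1 at 14 days is the lowest of its age for erythroid, B cell, MHC class II and macrophage lists.

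Macrophage markers fell in 16 of 25 cases (median -1.01, summed level 4079 to 4383 CPM at 7 days and 2324 to 3129 CPM at 14 days), and 1, C6, rose, which was not called without replicate 1 or 3 at 7 days or replicate 2 or 3 at 14 days. Mertk, a receptor for dying cells, was at 58.7, 66.2 and 60.6 CPM at 7 days and 7.41, 20.9 and 23.8 CPM at 14 days (log2 fold change -1.83, SE 0.30, adjusted p = 4.81e-04). Cd5l was at 53.7, 54.7 and 52.4 CPM at 7 days and 17.3, 43 and 42.3 CPM at 14 days (log2 fold change -0.65, SE 0.25, adjusted p = 0.048) and was not called without any 1 of the 7-day libraries. B cell markers fell in 12 of 17 cases and rose in 0 (median -1.02), with summed levels of 252, 587 and 661 CPM at 14 days against 865 to 988 CPM at 7 days. The pro-B cell genes Vpreb1 and Igll1, of the surrogate light chain, had log2 fold changes of -5.04 and -4.55, and Cd79a, of all B cells, of -0.79. The call of Cd79a held only with no library or replicate 3 at 14 days left out, and without replicate 1 at 14 days its log2 fold change was -0.45 and 1 B cell marker was higher. Without replicate 2 at 14 days that of Igll1 was -5.62.

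MHC class II genes rose instead, in 9 of 10 cases with 0 lower (median 1.25). H2-Ab1 was at 144, 106 and 126 CPM at 7 days and 391, 632 and 574 CPM at 14 days (log2 fold change 2.09, SE 0.26, adjusted p = 7.45e-05), with replicate 1 the lowest at 14 days. Dendritic cell markers rose in 10 of 17 cases and fell in 3 (median 1.29), among them Cd209a (3.09) and Clec10a (2.39). Monocyte markers rose in 12 of 22 and fell in 2 (median 0.59, summed level 2207 to 2550.2 CPM at 7 days and 4255 to 5551 CPM at 14 days). Much of the rise in this sum was that of Nr4a1 and Itgal, given above with immediate early and mature neutrophil genes. Their means were 201 and 695 CPM at 7 days and 1309 and 1249 CPM at 14 days. Ace, of patrolling monocytes, was at 40.3, 37.6 and 27.6 CPM at 7 days and 315, 292 and 257 CPM at 14 days (log2 fold change 3.03, SE 0.23, adjusted p = 2.85e-06). F13a1, a clotting factor subunit, was among the members that fell, and 1 monocyte marker was lower without any 1 of the 7-day libraries or replicate 2 at 14 days. Itgax is itself a member of the dendritic cell list. Most markers of these lists rose over the same week as Il1b and the interferon-stimulated genes. Replicate 1 at 14 days was the lowest of its age for summed MHC class II genes (2059 CPM) and the highest for Il1b (2732 CPM). The part of these markers in the other results was not tested.

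Of 26 T and NK cell markers 4 rose and 6 fell (median -0.53). Klrd1, of NK cells, rose by 2.02 and Lck, of T cells, fell by 1.41 on the log2 scale. The number lower was 3 without replicate 1 at 7 days, and the number higher 2 without replicate 2 at 14 days. Plasma cell markers had 1 of 9 higher and 3 lower, and 1 lower without replicate 1 or 3 at 7 days. Jchain, which joins IgA and IgM, was at 4.88, 4.5 and 5.18 CPM at 7 days and 9.81, 20.4 and 19.2 CPM at 14 days (log2 fold change 1.76, SE 0.45, adjusted p = 0.00718). Megakaryocyte and platelet markers fell in 9 of 18 and rose in 3 (median -0.48), and 1 rose without replicate 1 or 3 at 7 days or replicate 3 at 14 days. Their summed level, 4594 to 6686 CPM at 7 days and 3185 to 4153 CPM at 14 days, was mostly that of Thbs1. Stromal and endothelial markers fell in 13 of 19 and rose in 2 (median -2.18), and 1 rose with any 1 of the 6 libraries left out. Col4a1, of basement membranes, was at 12, 8.92 and 9.13 CPM at 7 days and 1.2, 0.571 and 0.755 CPM at 14 days.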

How the data were processed

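Polyadenylated RNA of Ly6G+ spleen cells was sequenced after random hexamer priming, per the labels' protocols, which do not give strand. The deposited table holds whole-number counts per gene for 12 libraries. RSEM 1.2.3, DESeq2 and mm10 are named, without their roles, per the submitters' processing notes, so the authors' counts may be rounded estimates. Of 38887 identifiers 37570 were given symbols from GENCODE M21 (GRCm38), and the other 1317 stayed in library totals. The main test was edgeR 4.0.16 in R 4.3.3 (quasi-likelihood, age as the only term, all 12 libraries, trimmed mean of M-values factors, filterByExpr with a minimum count of 10, Benjamini-Hochberg threshold 0.05). Libraries were grouped by labelled age. CPM use normalized library sizes, and SE is the absolute log2 fold change over the square root of F. Alternatives were DESeq2 1.42.0, limma 3.58.1 (voom), other scalings, filters and library sets.

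Members and lists were chosen with earlier results of these data known, and lists were not tested. Genes named were the 12 largest changes each way (20 CPM or more, no overlap, without predicted genes, pseudogenes, antigen receptor segments and sex-linked genes), up to 3 members per list by p and up to 2 by level, and a set named whatever its values. Genes outside this rule, named where a count was 5 or fewer, as promoter examples or among chemokine, stefin A and suppressive genes, were chosen after their values were seen. Promoters are from RefSeq (GRCm38.p6). The fit was checked on simulated counts. A few named genes are left out of the text and not reported here.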

Additional observations from a re-analysis of the deposited data

How the results depend on the processing

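The number of genes called stayed within 1.5 times the 7108 reported under every alternative: 7610 with DESeq2, 7308 with limma-voom, 6640 scaled by library totals alone, 6821 with no filter, 6543 with at least 1 CPM in 3 libraries, 8055 with only the 6 libraries fitted, 6911 without genes of chromosomes X and Y, and 5564 to 6344 with 1 library left out. The share of calls that were higher at 14 days was 52.2%, between 49.5% and 53.1% under these alternatives, and 46.2% with library totals alone. Replicate numbers did not pair the libraries, since deviations of same-numbered libraries correlated at -0.106, -0.099 and -0.01, and a replicate block gave 6585 calls. No library of either age correlated best with its own number.

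Several list counts moved by over 1.5 times. With only the 6 libraries fitted, lower members went from 20 to 38 for mitosis, 3 to 7 for interferon and interleukin 10 receptors, 2 to 4 for pattern recognition, 5 to 8 for primary granules, 6 to 10 for lipid genes, 1 to 3 for mature neutrophil genes, 3 to 5 for eosinophil and basophil markers, 0 to 1 for gelatinase granule and NADPH oxidase genes and 2 to 1 for monocyte markers, and higher members 0 to 1 for the fetal-type list and 1 to 2 for macrophage markers. With library totals alone, 7 cholesterol genes were higher in place of 12, and 5 interferon receptor, 3 mature neutrophil, 1 gelatinase, 1 NADPH oxidase, 1 glycolysis, 1 plasma cell and 1 monocyte gene were lower. DESeq2 gave 6 lower interferon receptor, 2 lower mature neutrophil, 2 higher NADPH oxidase, 2 higher macrophage and 1 higher fetal-type genes. limma-voom gave 5 lower interferon receptor, 0 higher macrophage and 1 higher stromal gene. With no filter 5 interferon receptor, 2 mature neutrophil and 1 NF-kB gene were lower and 0 NADPH oxidase genes higher, and with at least 1 CPM in 3 libraries 2 mature neutrophil genes were lower. The replicate block gave 3 lower primary granule, 1 lower Bcl2 family, 1 lower monocyte, 0 higher macrophage and 1 higher stromal gene. The cause of these shifts was not tested.

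Among single genes only values near 0 that were not called changed sign. With 1 library left out, Hspa5 ran from -0.298 to 0.0136, S100a9 from -0.0243 to 0.127, Ltf from -0.0627 to 0.144 and Igf2bp3 from -0.125 to 0.0137. With library totals alone S100a9 was -0.0523, Ltf -0.06 and Rps9 -0.0173. Calls of Elane, Lgals3bp and Il1r1 were also lost with library totals alone and with the replicate block, that of Cd79a also with only the 6 libraries, that of C6 in all of these and with limma-voom, that of Cd5l with library totals or only the 6 libraries, those of Rbm3 and Hif1a with library totals, those of Jak1, Prtn3, Cst3, C3ar1 and Ripk1 with the replicate block, and those of Ncf4, Sod2, C3ar1 and Egln1 with no filter. With limma-voom Wfdc17 was not called, and Mcpt4 (-8.05) and Igll1 (-5.29) were lower than reported. Cxcr2 was called with only the 6 libraries, and Spi1 with DESeq2, library totals or only the 6 libraries.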

Other observations

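Genes of sugar use and of cell death were not covered above. Glycolysis and pentose phosphate genes rose in 9 of 24 cases and fell in 0 (median 0.25). Slc2a1, a glucose transporter, had a log2 fold change of 1.24 ± 0.22, adjusted p = 7.37e-04, and Pgam1 of 0.69, while Pkm, pyruvate kinase, was at 1799, 2108 and 1822 CPM at 7 days and 2431, 1919 and 2043 CPM at 14 days and was not called. Bcl2 family and death genes rose in 10 of 22 cases and fell in 2, Bcl2l1 and Ripk1 (median 0.34), with 5 higher without replicate 3 at 7 days and 1 lower without replicate 2 at 7 days or replicate 2 or 3 at 14 days. Mcl1, on which neutrophil survival depends, was at 735, 864 and 741 CPM at 7 days and 2047, 1415 and 1373 CPM at 14 days (log2 fold change 1.05, SE 0.22, adjusted p = 0.00254). Pmaip1, its antagonist Noxa, was at 20.8, 24.3 and 24 CPM at 7 days and 184, 136 and 121 CPM at 14 days (log2 fold change 2.67, SE 0.35, adjusted p = 9.23e-05). Both rose in every 14-day library.

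Genes of hypoxia and of lipid uptake and droplets showed mixed directions, in shares near those over all genes tested (24% higher, 21.9% lower). The shares higher and lower were 27.8% and 27.8% for hypoxia genes and 28.6% and 21.4% for lipid uptake and droplet genes. Hypoxia response genes had 5 of 18 higher (Hif1a, Slc2a1, Car9, Egln3 and Bnip3) and 5 lower (P4ha2, P4ha1, Adm, Ero1l and Egln1), with a median of 0.26. Hif1a was not called without any 1 of the 7-day libraries or replicate 1 at 14 days, Egln1 not without replicate 1 at 7 days or replicate 2 or 3 at 14 days, and P4ha2 went from -4.77 to -5.67 without replicate 3 at 14 days. P4ha1, a collagen prolyl hydroxylase, was at 81.1, 76.3 and 80.5 CPM at 7 days and 13.9, 15.2 and 13.5 CPM at 14 days (log2 fold change -2.48, SE 0.25, adjusted p = 1.60e-05), against 7.66, 16.1 and 7.29 CPM at 2 days and 46.3, 41.8 and 35.4 CPM at 6 weeks. Cholesterol genes rose in 12 of 28 and fell in 4 (median 0.31), and 7 rose without replicate 3 at 7 days or replicate 2 at 14 days. Abca1, which exports cholesterol, was at 64.2, 68.1 and 70.4 CPM at 7 days and 24.7, 33.5 and 33.9 CPM at 14 days (log2 fold change -1.14, SE 0.19, adjusted p = 4.35e-04). Lipid uptake and droplet genes rose in 8 of 28 and fell in 6, and 4 rose without replicate 1 or 3 at 7 days and 5 without replicate 1 at 14 days. Pnpla2, which breaks down stored fat, was at 87.2, 87.9 and 79.4 CPM at 7 days and 316, 255 and 283 CPM at 14 days (log2 fold change 1.75, SE 0.25, adjusted p = 1.85e-04). Cathepsin and lysosome genes rose in 4 of 20 and fell in 6, with Ctsf at -2.24 and Ctsa at 0.94. Eosinophil and basophil markers rose in 3 of 16 and fell in 3, with Siglecf at 2.57 and Prss34, a basophil protease, at 38.6, 37.8 and 31.8 CPM at 7 days and 5.02, 10.8 and 11.3 CPM at 14 days.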
